A study of Mus musculus with 6 samples.

Results

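The 47 genes described here run the middle of cell division: the kinases and cyclins that start mitosis, the spindle checkpoint, the kinetochore, the anaphase-promoting complex and the machinery of the spindle and of cytokinesis. They were taken by name from a table of 54532 genes, and all 47 were found and passed the filter on low counts. RNA had been sequenced from primary neurospheres, which are free-floating balls of cultured neural progenitors. They came from C57BL/6 mouse embryos at E14.5 and were collected on day 6 in medium with EGF and bFGF. The study compared Ash2l conditional knockout (KO) with wild type (WT) spheres, with 3 libraries each, WT 3, WT 6 and WT 7 and KO 1, KO 2 and KO 3, which are the submitters' numbers. The deletion was driven by D6-Cre, a transgene active in the dorsal forebrain, so cells in which it is silent keep the gene. The sources used here do not say whether WT embryos carried the Cre or floxed alleles, or whether embryos were pooled. The labels name both the dorsal cortex and the walls of the lateral ventricles as the source of the cells. ASH2L is a core component common to the COMPASS methyltransferases, which mark histone H3 at lysine 4.

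Entry into mitosis is set by cyclin-dependent kinase 1 bound to cyclins A and B. The spindle checkpoint holds cells in metaphase until every kinetochore is attached, by blocking CDC20. Once CDC20 is free, the anaphase-promoting complex marks securin (Pttg1) and cyclin B for destruction, and separase (Espl1) opens cohesin. Most of these genes are transcribed in G2 and M, and FOXM1, B-MYB with the MuvB complex, and NF-Y are known to activate many of them through promoter elements such as the cell cycle genes homology region (CHR) and the CCAAT box. In embryonic cortex and in neurospheres they mark dividing progenitors.

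The promoters of 8 members are shown as examples of large and small changes. Of these genes 5 rose by more than 4-fold (Cdk1, Ccnb2, Bub1, Cdc20 and Espl1). The other 3 moved little or did not pass the test (Pttg1, Fzr1 and Cdc27). Each printed sequence runs 5′ to 3′ from 120 bases before to 30 bases after the RefSeq start on GRCm38.p6, the same assembly as mm10. Capitals mark the CHR (TTTGAA or TTCGAA) and the CCAAT box (CCAAT), on either strand.
Cdk1 (chr10:69352883-69353032, minus strand): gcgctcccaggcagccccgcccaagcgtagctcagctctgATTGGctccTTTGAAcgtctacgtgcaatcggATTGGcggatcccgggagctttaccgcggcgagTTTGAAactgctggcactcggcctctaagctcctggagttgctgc
Ccnb2 (chr9:70421525-70421674, minus strand): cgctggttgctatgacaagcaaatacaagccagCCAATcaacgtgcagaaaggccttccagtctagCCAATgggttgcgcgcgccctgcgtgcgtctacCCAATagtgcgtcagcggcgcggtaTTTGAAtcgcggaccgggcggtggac
Bub1 (chr2:127831830-127831979, minus strand): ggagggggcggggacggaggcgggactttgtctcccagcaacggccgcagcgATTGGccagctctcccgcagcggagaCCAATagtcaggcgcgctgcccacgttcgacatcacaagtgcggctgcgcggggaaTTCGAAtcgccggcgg
Cdc20 (chr4:118437314-118437463, minus strand): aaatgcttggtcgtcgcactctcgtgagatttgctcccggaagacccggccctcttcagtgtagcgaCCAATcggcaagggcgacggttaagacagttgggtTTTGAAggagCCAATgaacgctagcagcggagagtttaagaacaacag
Espl1 (chr15:102296173-102296322, plus strand): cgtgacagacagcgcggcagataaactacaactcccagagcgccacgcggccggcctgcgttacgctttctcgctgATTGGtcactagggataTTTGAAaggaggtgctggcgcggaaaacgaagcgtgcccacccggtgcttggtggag
Pttg1 (chr11:43425952-43426101, minus strand): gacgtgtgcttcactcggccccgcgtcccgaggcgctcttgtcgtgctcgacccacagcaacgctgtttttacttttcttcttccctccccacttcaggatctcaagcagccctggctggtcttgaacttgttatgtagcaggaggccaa
Fzr1 (chr10:81378341-81378490, minus strand): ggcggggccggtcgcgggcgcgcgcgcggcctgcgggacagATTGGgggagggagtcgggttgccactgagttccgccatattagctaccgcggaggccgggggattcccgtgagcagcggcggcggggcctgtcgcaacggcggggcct
Cdc27 (chr11:104550591-104550740, minus strand): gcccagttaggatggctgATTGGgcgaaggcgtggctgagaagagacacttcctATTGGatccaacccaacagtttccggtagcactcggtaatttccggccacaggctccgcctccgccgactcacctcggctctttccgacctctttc
Counting the first transcribed base as 1, the CHR match nearest the start began at -15 in Cdk1, 5 in Ccnb2, 15 in Bub1, -18 in Cdc20 and -27 in Espl1. A CCAAT box began upstream of it in all 5, at -48, -21, -42, -53 and -44. Fzr1 held 1 CCAAT box at -79 and Cdc27 held 2, at -102 and -66, and neither held a CHR match in the whole window. Pttg1 held no match to either. This split of CHR matches does not hold over all members. Bub3, Cdc25b and Ube2s had small rises and a CHR match, while Ccnb1, Nuf2, Birc5 and Cks2 had large rises without one. The RefSeq start of Pttg1 lies 270 bases inside the gene's start in the deposited table. That outer start is beyond the window searched, and its promoter is not covered. For Fzr1 the difference is 146 bases, and the table's start lies within the window.

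Over the whole RefSeq window, from 250 bases before to 50 bases after the start, 40 of the 47 members had an entry. Ccna2, Cdc25c, Foxm1, Aurkb, Incenp, Spc24 and Tpx2 had none. Motifs were searched on both strands. A CHR match stood in 29 of the 40 members (72.5%), against 21.7% of all 27025 symbols with a promoter and 15.9% of the 11509 that were also among the tested genes. The CCAAT box stood in 32 members (80%), against 41.1% of all symbols and 42.8% of tested ones. A CHR match stood in 26 of the 34 matched members that rose by more than 4-fold and in 3 of the other 6 (Bub3, Cdc25b and Ube2s). Both motifs stood together in 26 members (65%), against 9.65% and 8.05%. An E2F site (TTTCGCGC or TTTGGCGC, either strand) was found in 1 member, Cdk1, at -131, and in 0.929% of all symbols. No motif searched contains another. Neither a CHR nor a CCAAT match was found in 5 members, namely Nuf2, Birc5, Nusap1, Mad2l1 and Pttg1, of which the first 4 rose by more than 4-fold. A match is a description of letters, and binding was not measured.

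**Figure D1:**
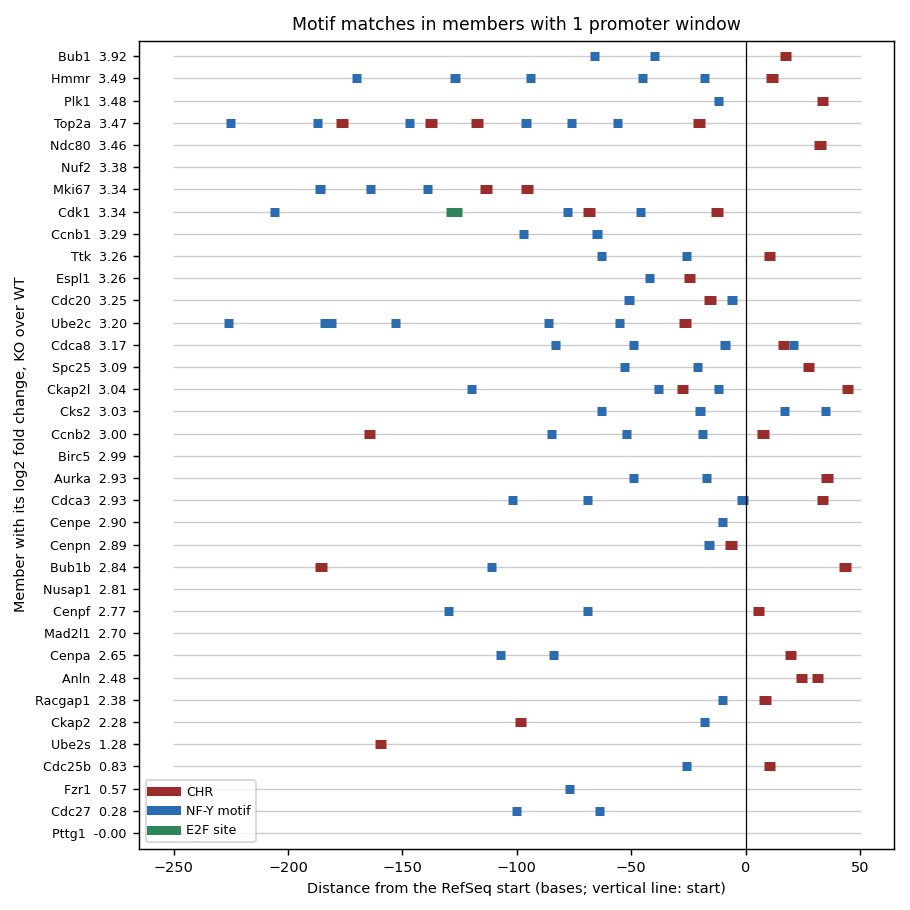
Motif matches in the RefSeq promoter windows of the members with 1 window, ordered by log2 fold change of KO over WT (printed beside each name), with the distance from the start in bases on the x axis. Red bars are CHR matches, blue bars the CCAAT box that NF-Y is known to bind, and the green bar the E2F site of Cdk1. Many CHR matches sit close to the start. Members with no CHR match are found along the whole plot, from Nuf2 and Ccnb1 to Fzr1, Cdc27 and Pttg1, and Cdc25b and Ube2s near its foot have one.

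Total counts ran from 16764480 to 21983659 per library. Ash2l (ENSMUSG00000031575, chromosome 8 from 25815996 to 25847694) was measured at 116, 113 and 109 CPM in WT 3, 6 and 7 and 86.1, 99.2 and 102 CPM in KO 1, 2 and 3, with a log2 fold change of -0.24 (SE 0.10) and a Benjamini-Hochberg adjusted p of 0.119 (edgeR). All 3 KO libraries lay below the WT libraries. Which exons are deleted is not stated, and the count sums whatever exons remain, so it is no measure of how many cells had recombined. Progenitor markers were present in every library (summed level 3985 to 5224 CPM in WT and 3815 to 5759 in KO). Of the 9, Sox2, Pax6 and Hes5 fell and Nes rose, where 15.5% of all tested genes fell and 13.5% rose. Emx1, a marker of dorsal progenitors, was at 18.9, 2.66 and 2.17 CPM in WT 3, 6 and 7 and 18.3, 13.96 and 23.6 CPM in KO 1, 2 and 3. Markers of glial lineages were mostly lower in KO. Of 8 astrocyte markers 7 fell (2139.5 to 7259 CPM in WT and 579 to 887 in KO), of 8 oligodendrocyte lineage markers 5 fell (3635 to 4096 and 1114 to 2023), against 15.5% of all tested genes that fell. Of 8 neuron markers 2 rose, where 13.5% of all tested genes rose. Their summed levels met between the groups, at 1408 to 2504 CPM in WT and 2498 to 3672 in KO. Summed microglia markers were at 1.01 to 2.51 CPM in WT and 2.31 to 10.1 in KO, and of the 2 that could be tested 0 passed. Endothelial markers were at 4.59 to 6.97 and 2.74 to 4.77, with 1 of the 2 tested lower (Kdr) and Cdh5 and Cldn5 at 0 in all WT libraries. KO 1 stood apart in mural and fibroblast markers, at 401 CPM against 25.4 to 60.2 in the other libraries, and 1 of the 6 passed (Lum). The call of Lum ended without any 1 of the WT libraries. With all libraries kept it also ended with limma-voom and with limma on either log2 FPKM scale. These single markers were named after their values were seen. WT 3 stood apart from WT 6 and WT 7, at 2139.5 against 7085 and 7259 CPM of astrocyte markers. The part of these cells in the results was not tested. In bulk RNA, fewer cells of a type and less RNA per cell cannot be told apart.

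Mitotic genes were higher in the KO spheres with few exceptions. In 1 fit over all tested genes (edgeR quasi-likelihood test on counts, Benjamini-Hochberg adjusted p under 0.05), 45 of the 47 members rose and 0 fell, against 13.5% of all tested genes that rose. The exceptions were securin (Pttg1) and Cdc27, a core subunit of the anaphase-promoting complex. In 46 members all 3 KO libraries lay above all 3 WT libraries, as in 23.5% of tested genes. The median log2 fold change of the members was 3.00, or 7.98-fold, beside 0.0019 over all tested genes. It was 3.63 without WT 3 and 3.13 without KO 1. Leaving out WT 7, WT 6 or KO 2 moved the members' changes by a median of -0.26, -0.18 and -0.14. More than 4-fold rises were called in 41 members, as in 3.3% of tested genes, and these spanned 4.87-fold in Ckap2 to 15.1-fold in Bub1. The next member below was Ube2s at 2.43-fold, so in this fit a gap separated the 41 from the other 6. The split depends on the scale. With limma on log2(FPKM + 1) the log2 fold changes of Cenpk and Anln were 1.25 and 1.86, both under 4-fold. Adjusted p-values of the 45 lay between 0.000972 and 0.0171 (edgeR). Changes below are log2 fold changes of KO over WT, with the SE in brackets. The labels do not say whether the 3 libraries of a group are separate embryos or cultures, and the p-values therefore rest on a spread that may be technical.

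The members moved together from library to library. Their summed level was 1299.9 CPM in WT 3, 757 in WT 6 and 677 in WT 7, while KO 1 reached 4678, KO 2 6009.7 and KO 3 4811 CPM. WT 3 was the highest WT library in 44 of 47 members, as in 40.6% of tested genes, the exceptions being Bub3, Cdc27 and Pttg1. Over the 41 members with large rises WT 3 stood a median of 2.70 times above the mean of WT 6 and WT 7 (range 1.51 to 3.93). KO 2 was the highest KO library in 42 members. How often it was highest over all tested genes was not counted. Cdc25b, Fzr1, Pttg1 and Ckap2 were highest in KO 3 and Cdc27 in KO 1. The spread was wider in WT than in KO. Among the 41, the highest WT library reached up to 5.65 times the lowest, in Cdc25c, and the highest KO library at most 1.75 times the lowest, in Ndc80. The lowest KO library was still 2.74 to 7.13 times the highest WT library in each of them.

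**Figure D2:**
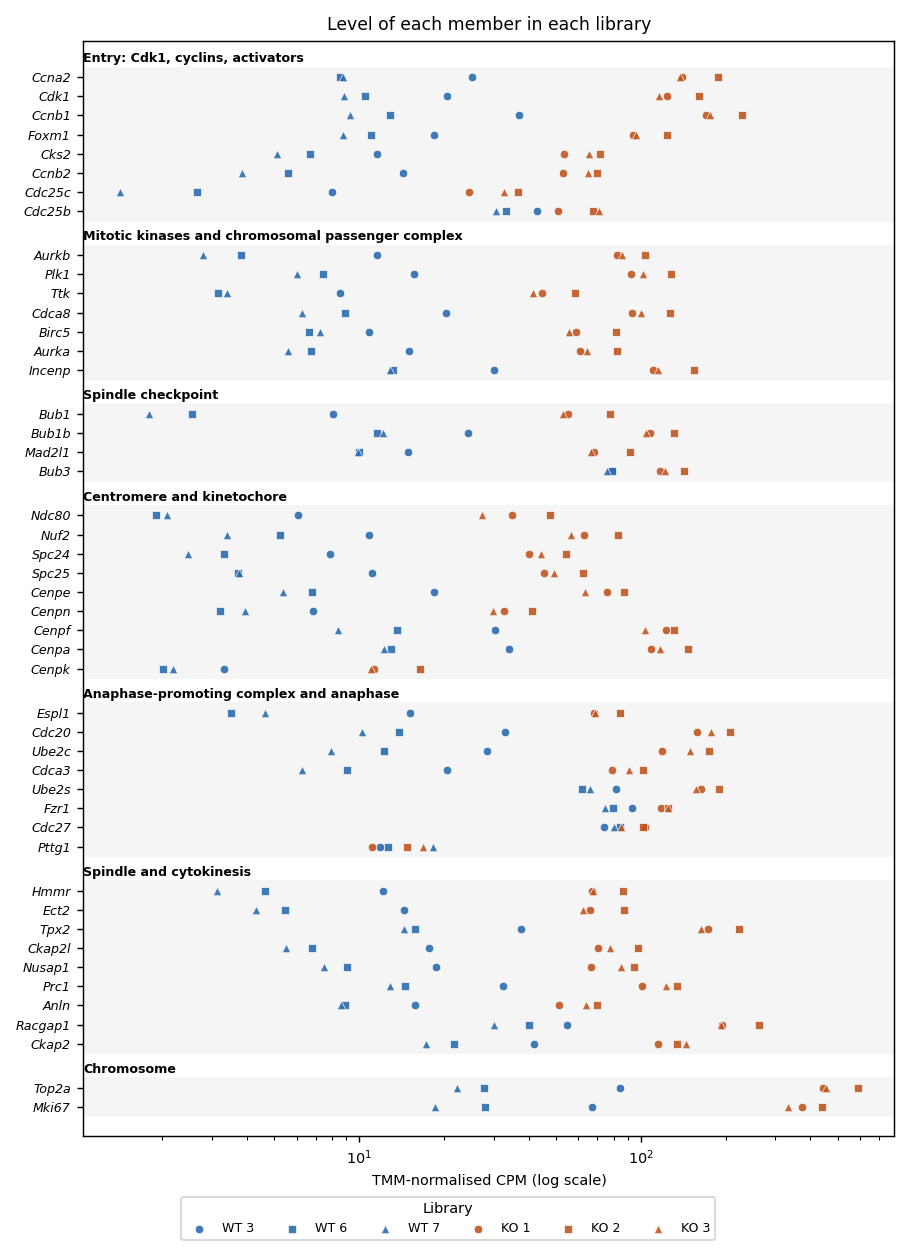
TMM-normalised CPM of the 47 members in each library on a log axis, with WT in blue and KO in orange and 1 marker shape per library, grouped by role. The KO libraries lie to the right of the WT libraries for 46 members, and the 6 libraries mix for Pttg1 alone, while WT 3 (blue circles) sits between the other WT libraries and KO for most members.

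All 8 genes that start mitosis rose, 1 of them far less than the rest (adjusted p from 0.00144 to 0.0171, edgeR). Cdk1, the kinase that drives entry, was at 20.6, 10.5 and 8.84 CPM in WT 3, 6 and 7 and 124, 161 and 116 CPM in KO 1, 2 and 3, and its log2 fold change was 3.34 (SE 0.34). Cyclin A2 (Ccna2), its partner in S and G2, stood at 25.1, 8.53 and 8.79 CPM in the WT libraries and 139.7, 188 and 138 CPM in the KO libraries and rose by 3.46 (SE 0.45). Cyclin B1 (Ccnb1), its partner in mitosis, had 36.8, 12.9 and 9.27 CPM in the WT libraries and 169.8, 229 and 176 CPM in the KO libraries and rose by 3.29 (SE 0.51). For each of these genes even the lowest KO library was several times the highest WT library. Foxm1, the transcription factor of this gene programme, stood at 18.4, 10.98 and 8.79 CPM in the WT libraries and 94.2, 124 and 95.9 CPM in the KO libraries, a change of 3.04 (SE 0.29). Cyclin B2 (Ccnb2) rose from 5.13 ± 3.81 to 41.8 ± 5.52 FPKM (SD, n = 3 each, as for all values given with ±) and Cks2, a small subunit that binds Cdk1, from 11.1 ± 5.17 to 93.5 ± 12.6 FPKM. Their changes were 3.00 (SE 0.47) and 3.03 (SE 0.31). Per unit of gene length Cks2 thus had the highest mean of the 8 in both groups. In WT it did not differ beyond its spread from Cdc25b (9.38 ± 2.00 FPKM), which was the higher in WT 7. The phosphatases that activate Cdk1 differed. Cdc25c was at 8.01, 2.66 and 1.42 CPM in the WT libraries and 24.6, 36.6 and 32.5 CPM in the KO libraries and rose by 2.96 (SE 0.60), whereas Cdc25b was at 42.8, 33.3 and 30.6 CPM in the WT libraries and 50.7, 67.6 and 71.3 CPM in the KO libraries and rose by 0.83 (SE 0.18). The lowest KO library of Cdc25b lay just above its highest WT library. Its call ended without WT 6 (adjusted p = 0.0722), WT 7 (0.0652) or KO 2 (0.0667) by edgeR, and that of Cdc25c without WT 6 (0.052). Without WT 3 the log2 fold changes were 4.16 for Ccna2, 4.11 for Ccnb1, 3.74 for Ccnb2 and 3.94 for Cdc25c.

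All 7 genes of the mitotic kinases and the chromosomal passenger complex rose, by 2.76 to 3.91 (adjusted p from 0.00101 to 0.00367, edgeR). Aurora B (Aurkb, ENSMUSG00000020897, chromosome 11 from 69045647 to 69051664), the kinase of that complex, which corrects faulty attachments, was at 11.5, 3.81 and 2.79 CPM in WT 3, 6 and 7 and 82.2, 103 and 85.9 CPM in KO 1, 2 and 3. It had the largest rise of the 7, at 3.91 (SE 0.52), and 4.78 without WT 3. Aurora A (Aurka), the kinase of centrosomes and spindle poles, was at 15.1, 6.72 and 5.58 CPM in the WT libraries and 60.7, 82.5 and 64.7 CPM in the KO libraries, with a change of 2.93 (SE 0.39). In WT libraries Aurkb was the less abundant of the pair per unit length and in KO libraries the more abundant. Polo-like kinase 1 (Plk1), which acts from entry to cytokinesis, was at 15.6, 7.42 and 6.00 CPM in the WT libraries and 92.3, 128 and 102 CPM in the KO libraries, a change of 3.48 (SE 0.37). Ttk, also called MPS1, the kinase that starts checkpoint signalling, was at 8.57, 3.16 and 3.40 CPM in the WT libraries and 44.7, 58.4 and 41.4 CPM in the KO libraries. It rose by 3.26 (SE 0.42), and by 3.87 without WT 3. Aurora B works with 3 partners. Survivin (Birc5), which docks the complex on chromatin, was at 10.9, 6.62 and 7.23 CPM in the WT libraries and 58.8, 81.7 and 55.7 CPM in the KO libraries, a change of 2.99 (SE 0.25). Borealin (Cdca8) was at 20.4, 8.88 and 6.24 CPM in the WT libraries and 92.9, 127 and 99.8 CPM in the KO libraries, a change of 3.17 (SE 0.43) that became 3.82 without WT 3. The scaffold Incenp was at 30.2, 13.2 and 12.8 CPM in the WT libraries and 111, 155 and 115 CPM in the KO libraries, a change of 2.76 (SE 0.36). Per unit length Incenp had the highest WT level of the 4 and the smallest rise, from 5.77 ± 3.26 to 40.2 ± 7.55 FPKM. Aurkb had the largest rise, from 2.04 ± 1.68 to 31.4 ± 3.79 FPKM, and the lowest WT mean. That mean did not differ beyond the spread from those of Cdca8 (2.27 ± 1.52 FPKM) and Birc5 (2.39 ± 0.748 FPKM).

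All 4 spindle checkpoint genes rose, but by unequal amounts (adjusted p from 0.000972 to 0.00477, edgeR). The kinase Bub1 (ENSMUSG00000027379, chromosome 2 from 127801122 to 127831865), which recruits the checkpoint to kinetochores, was at 8.07, 2.56 and 1.80 CPM in WT 3, 6 and 7 and 55.3, 78.0 and 53.0 CPM in KO 1, 2 and 3. Its rise of 3.92 (SE 0.56), or 15.1-fold, was the largest of all members in this fit, and reached 4.83 without WT 3. The rise did not differ beyond its SE from that of Aurkb, at 3.91 (SE 0.52). BubR1 (Bub1b), which holds CDC20 inactive, stood at 24.4, 11.5 and 12.1 CPM in the WT libraries and 108, 131 and 104 CPM in the KO libraries and rose by 2.84 (SE 0.31). Mad2 (Mad2l1), the protein that binds CDC20 at unattached kinetochores, had 15.0, 9.98 and 9.88 CPM in the WT libraries and 68.4, 91.5 and 66.7 CPM in the KO libraries and rose by 2.70 (SE 0.22). Bub3, the partner of both Bub1 and Bub1b, was already abundant in WT. It was at 78.8, 78.9 and 76.0 CPM in the WT libraries and 117, 142 and 122 CPM in the KO libraries, and its KO libraries lay above its WT libraries by 0.71 (SE 0.11). The 3 WT libraries of Bub3 lay close together, where those of the other 3 genes were highest in WT 3.

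The 9 centromere and kinetochore genes all rose, by 2.37 to 3.46 (adjusted p from 0.00197 to 0.00576, edgeR). The NDC80 complex, the clamp that holds microtubules, has 4 subunits. Ndc80 was at 6.05, 1.91 and 2.08 CPM in WT 3, 6 and 7 and 34.8, 47.8 and 27.3 CPM in KO 1, 2 and 3 and rose by 3.46 (SE 0.50). Nuf2, its partner in the outer arm, was at 10.9, 5.22 and 3.40 CPM in the WT libraries and 63.1, 82.8 and 56.4 CPM in the KO libraries and rose by 3.38 (SE 0.43). Spc24 and Spc25, which tie the complex to the centromere, rose by 3.35 (SE 0.44) and 3.09 (SE 0.46). The largest and the smallest of these 4 changes were less than 1 SE apart. Cenpa, the histone H3 variant that marks the centromere, was at 34.1, 12.99 and 12.3 CPM in the WT libraries and 109, 147 and 117 CPM in the KO libraries and rose by 2.65 (SE 0.41). At the outer kinetochore, the kinesin Cenpe rose by 2.90 (SE 0.47) and Cenpf by 2.77 (SE 0.44). In the inner kinetochore Cenpn, which reads the Cenpa nucleosome, rose by 2.89 (SE 0.31). Cenpk had the lowest mean level of all members per unit length, from 0.470 ± 0.150 to 2.52 ± 0.582 FPKM. Its rise, 2.37 (SE 0.30), was the smallest of the 9. In WT its mean lay within the spread of Ndc80 (0.512 ± 0.376 FPKM), which was below Cenpk in WT 6 and WT 7. Without WT 3 the changes were 4.19 for Ndc80, 3.81 for Spc25 and between these for Spc24, and 3.30 for Cenpa, 3.64 for Cenpe and 3.43 for Cenpf.

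The genes of the anaphase-promoting complex and of anaphase had the widest range of change, with 6 of 8 higher and 2 that missed the threshold. Cdc20 (ENSMUSG00000006398, chromosome 4 from 118432901 to 118437352), the coactivator that works in mitosis, was at 32.9, 13.9 and 10.2 CPM in WT 3, 6 and 7 and 158, 207 and 177 CPM in KO 1, 2 and 3. It rose by 3.25 (SE 0.43), and by 3.90 without WT 3. At 98.6 ± 12.8 FPKM it was the most abundant member in KO per unit length. Fzr1 (ENSMUSG00000020235, chromosome 10 from 81366222 to 81378516), the coactivator of late mitosis and G1 also called CDH1, was at 93.3, 79.6 and 74.5 CPM in the WT libraries and 118, 125 and 125 CPM in the KO libraries. Its rise was 0.57 (SE 0.11), with an adjusted p of 0.0116 (edgeR), and the call ended without WT 6 (adjusted p = 0.0591) or WT 7 (0.0518). The core subunit Cdc27 (ENSMUSG00000020687, chromosome 11 from 104502745 to 104550620) stood at 74.1, 84.7 and 80.6 CPM in the WT libraries and 103, 102 and 85.1 CPM in the KO libraries, a change of 0.28 (SE 0.11) with an adjusted p of 0.109 (edgeR). Its KO values lay above its WT values, but KO 3 and WT 6 were nearly equal.

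The ubiquitin-conjugating enzymes of the complex also rose by unequal amounts. Ube2c, which starts ubiquitin chains, was at 28.4, 12.2 and 7.94 CPM in the WT libraries and 119, 175 and 150.0 CPM in the KO libraries, a rise of 3.20 (SE 0.46), and of 3.87 without WT 3. Ube2s, which extends them, was at 81.7, 61.9 and 65.9 CPM in the WT libraries and 164, 189 and 157 CPM in the KO libraries, a rise of 1.28 (SE 0.14). Ube2s was the more abundant of the pair in WT, and the groups did not overlap for either gene. Separase (Espl1, ENSMUSG00000058290, chromosome 15 from 102296266 to 102324357), the protease that cleaves cohesin, was at 15.1, 3.51 and 4.63 CPM in WT 3, 6 and 7 and 68.4, 84.0 and 68.5 CPM in KO 1, 2 and 3, and rose by 3.26 (SE 0.54), or 4.17 without WT 3. Securin (Pttg1, ENSMUSG00000020415, chromosome 11 from 43420250 to 43426251), which inhibits separase until anaphase, was at 11.9, 12.7 and 18.2 CPM in WT 3, 6 and 7 and 11.1, 14.8 and 16.9 CPM in KO 1, 2 and 3. The groups of Pttg1 overlapped, with the highest value in WT 7 and the lowest in KO 1. Its log2 fold change of -0.0023 (SE 0.24) had an adjusted p of 0.995 (edgeR), and its sign changed with the scaling. Cdca3, an adaptor for the destruction of the Cdk1 inhibitor WEE1, was at 20.5, 9.08 and 6.29 CPM in the WT libraries and 79.2, 102 and 90.7 CPM in the KO libraries, a rise of 2.93 (SE 0.42) that became 3.56 without WT 3.

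**Figure D3:**
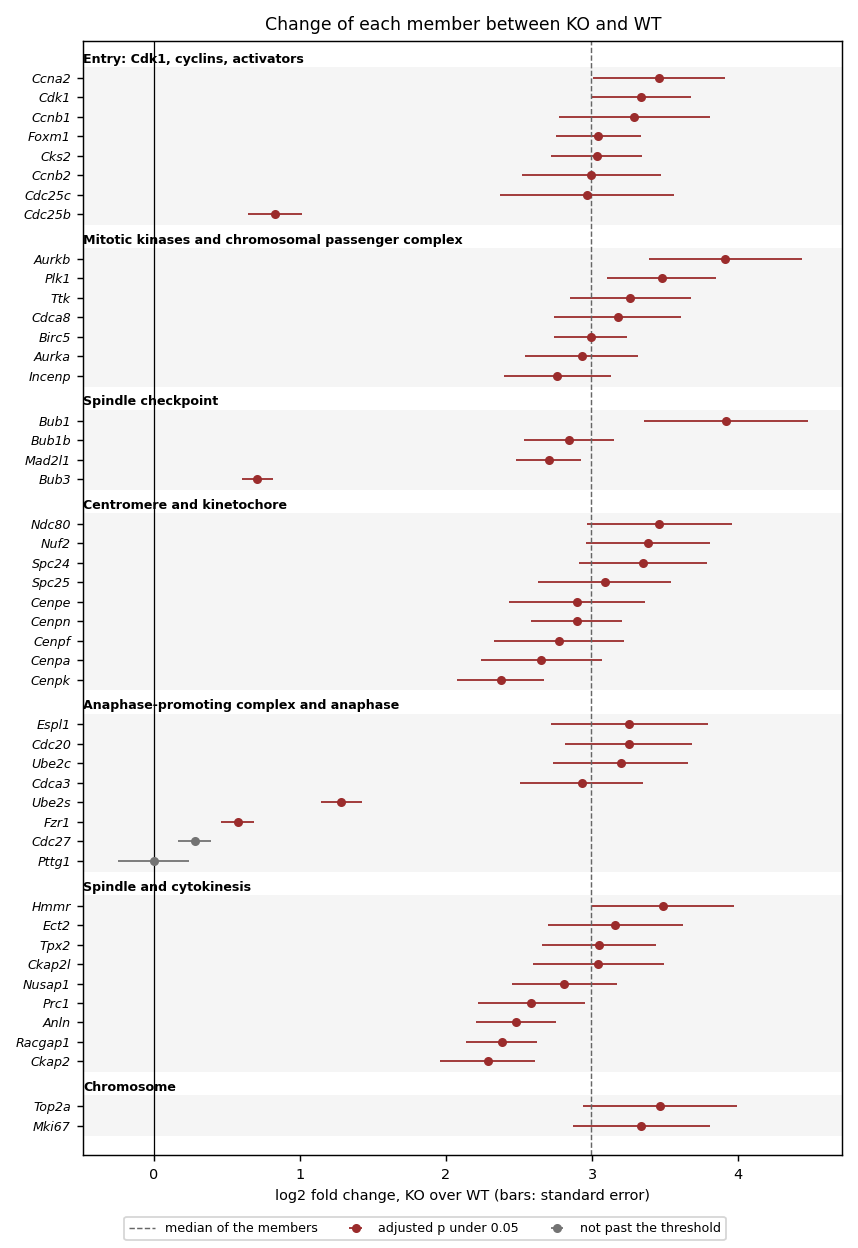
Log2 fold change of KO over WT for each member with its standard error, grouped by role. Red points passed an adjusted p of 0.05 and grey points did not, and the dashed line is the median of the members at 3.00. Cdc25b, Bub3, Ube2s, Fzr1, Cdc27 and Pttg1 lie well to the left of the rest.

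All 9 genes of the spindle and cytokinesis rose, by 2.28 to 3.49 (adjusted p from 0.00174 to 0.00452, edgeR). Tpx2, which activates Aurora A on spindle microtubules, was at 37.6, 15.8 and 14.4 CPM in WT 3, 6 and 7 and 174, 222 and 164 CPM in KO 1, 2 and 3 and rose by 3.05 (SE 0.39). Hmmr, a spindle protein and hyaluronan receptor, had the largest rise of the 9, 3.49 (SE 0.49), from 1.21 ± 0.921 to 13.8 ± 2.01 FPKM. Racgap1 and Ect2 together switch on RhoA at the cell equator. Ect2 was at 14.45, 5.47 and 4.30 CPM in the WT libraries and 66.2, 87.0 and 62.1 CPM in the KO libraries and rose by 3.16 (SE 0.46). Racgap1 was at 54.7, 40.2 and 30.02 CPM in the WT libraries and 195, 262 and 193 CPM in the KO libraries and rose by 2.38 (SE 0.24), from a higher WT level per unit length than Ect2. Prc1, which bundles the central spindle, rose by 2.58 (SE 0.36) and anillin (Anln), the scaffold of the contractile ring, by 2.48 (SE 0.27). The spindle proteins Nusap1, Ckap2l and Ckap2 rose by 2.81 (SE 0.36), 3.04 (SE 0.45) and 2.28 (SE 0.33), and Ckap2 had the smallest rise of the 41 large ones. Without WT 3 the changes were 4.25 for Hmmr, 3.88 for Ect2 and 3.74 for Ckap2l. Both chromosome genes rose as well (adjusted p of 0.00402 and 0.00487, edgeR). Topoisomerase II alpha (Top2a), which untangles sister chromatids, was at 84.5, 27.7 and 22.3 CPM in WT 3, 6 and 7 and 442, 588 and 453 CPM in KO 1, 2 and 3, a rise of 3.47 (SE 0.53) and of 4.30 without WT 3. Ki-67 (Mki67), which coats mitotic chromosomes, was at 67.1, 28.0 and 18.6 CPM in the WT libraries and 374, 441 and 333 CPM in the KO libraries, a rise of 3.34 (SE 0.47) and of 4.03 without WT 3. These were the members with the most reads in KO.

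Per unit of gene length the order of the members changed between the groups. In WT the highest levels were those of Fzr1 at 18.0 ± 2.71 FPKM, Ube2s at 13.4 ± 2.45, Cdc27 at 12.5 ± 0.492, Cks2 at 11.1 ± 5.17, Bub3 at 10.9 ± 0.5002, Cdc20 at 10.1 ± 6.83 and Cdc25b at 9.38 ± 2.00. The 6 members outside the 41 with large rises were thus among the 9 most abundant in WT, Pttg1 being the last of these at 6.97 ± 1.57 FPKM. In KO the highest were Cdc20 and Cks2 at 98.6 ± 12.8 and 93.5 ± 12.6 FPKM, which did not differ beyond their spread. Ube2c and Top2a followed at 58.0 ± 10.5 and 56.0 ± 9.10 FPKM, also within their spread, and then Plk1 at 49.8 ± 8.33 FPKM. The lowest in KO were Cenpk at 2.52 ± 0.582 FPKM, Ndc80 at 5.76 ± 1.64 FPKM and Anln at 6.95 ± 1.01 FPKM, so that Pttg1, at 7.26 ± 1.39 FPKM, had become one of the least abundant members.

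Ratios between members within a library do not depend on how libraries are scaled, and 8 pairs of partners, chosen after their values were seen, were compared as FPKM ratios. Cdc20 over Fzr1 was 0.848, 0.419 and 0.330 in WT 3, 6 and 7 and 3.23, 3.98 and 3.40 in KO 1, 2 and 3. The coactivator of mitosis was thus below that of G1 in every WT library and above it in every KO library. Espl1 over Pttg1 was 0.291, 0.0632 and 0.0580 in WT 3, 6 and 7 and 1.41, 1.301 and 0.929 in KO 1, 2 and 3, a difference of 11.7-fold between the group means on the log scale, and of 19.7-fold without WT 3. Bub1b over Bub3 was 0.507, 0.239 and 0.261 in WT 3, 6 and 7 and 1.51, 1.51 and 1.40 in KO 1, 2 and 3. Aurkb was the partner that gained more on Aurka, and their ratio went from 0.430 to 0.658 in WT to 1.08 to 1.16 in KO. Ccnb1 over Ccnb2 differed by only 1.25-fold, though the groups did not overlap. Ndc80 over Nuf2, subunits of 1 complex, overlapped between the groups, at 0.544, 0.357 and 0.597 in WT 3, 6 and 7 and 0.539, 0.563 and 0.473 in KO 1, 2 and 3. Cdc25c over Cdc25b was 0.359, 0.153 and 0.0889 in WT 3, 6 and 7 and 0.931, 1.04 and 0.876 in KO 1, 2 and 3, and Ube2c over Ube2s was 0.687, 0.391 and 0.238 in WT 3, 6 and 7 and 1.44, 1.83 and 1.89 in KO 1, 2 and 3. These pairs, too, did not overlap between the groups. With 3 libraries in each group the smallest p an exact two-sided permutation test allows is 0.1. This value was reached by 7 of the 8 pairs (0.114 after adjustment over the 8, exact test). Ndc80 over Nuf2 had an exact p of 0.9. Because the pairs were chosen with their values known, these p-values are no evidence of a difference. Fzr1, Pttg1, Bub3, Cdc25b and Ube2s, which rose far less or not at all, were set under partners with large rises.

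**Figure D4:**
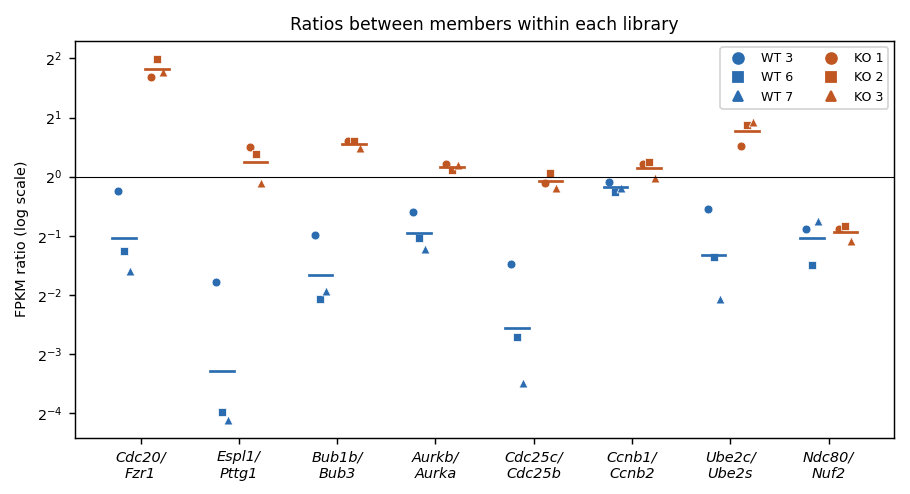
FPKM ratio of 8 pairs of members in each library on a log axis, with WT in blue, KO in orange, and short lines at the group means of the log ratios. Cdc20 over Fzr1 passes 1 between the groups, Espl1 over Pttg1 has the widest gap, and Ndc80 over Nuf2 overlaps.

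Other genes of mitosis were taken in 6 lists of 90 genes, all of them tested. Of the 90, 58 rose and 3 fell, where 13.5% of all tested genes rose and 15.5% fell. Their median log2 fold change was 1.18. The lists did not move alike. Genes named from each list are those with the lowest p. Of 9 other checkpoint genes 6 rose (median 2.83), among them Kntc1, a part of the ROD-ZW10 complex of kinetochores, at 3.55 (SE 0.33) and Trip13, which recycles MAD2, at 2.83 (SE 0.30), as well as Sgo2a, a protector of cohesin, at 2.88 (SE 0.36). Of 25 other centromere and kinetochore genes 21 rose (median 1.97), with Cenpi at 3.30 (SE 0.33), Cenph at 2.77 (SE 0.22) and Pmf1, a subunit of the MIS12 complex, at 2.56 (SE 0.16). Of 16 other regulators of entry and exit 12 rose (median 2.12). Those that rose were not only activators. Bora, which helps to activate PLK1, rose by 1.96 (SE 0.23) and Gtse1 by 3.41 (SE 0.35), and so did Wee1, the kinase that inhibits Cdk1. Wee1 was at 9.75, 6.97 and 9.64 CPM in the WT libraries and 40.4, 51.4 and 39.3 CPM in the KO libraries, a change of 2.31 (SE 0.20). Of 18 other genes of spindle, centrosome and cytokinesis 14 rose and 1 fell (median 1.41). Plk4, the kinase of centriole duplication, rose by 2.82 (SE 0.21), Arhgap11a by 2.70 (SE 0.23) and the augmin subunit Haus6 by 1.48 (SE 0.14). The gene that fell, named after its value was seen, was Numa1, which anchors spindle poles, at -0.67 (SE 0.14). Its adjusted p was 0.0506 without WT 7 and 0.0506 without KO 2 (edgeR).

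The 13 other subunits of the anaphase-promoting complex had changes from -0.54 to 0.52, beside 0.28 for Cdc27. Of these 1 rose and 1 fell, no larger a share than the 13.5% and 15.5% of all tested genes, and the median was -0.07. Anapc1, the largest subunit, rose by 0.37 (SE 0.11), Anapc16 fell by 0.54 (SE 0.14), and Anapc15 had a change of 0.52 (SE 0.16) with an adjusted p of 0.0538 (edgeR). Both calls were lost on leaving out WT 6, WT 7, KO 1 or KO 2. Anapc1 also lost its call without WT 3 or without an expression filter, and Anapc16 without KO 3. Of 9 genes of the factors known to act on these promoters 4 rose and 1 fell (median 0.20). B-Myb (Mybl2) rose most, by 3.03 (SE 0.25), and was at 5.60, 3.81 and 4.73 CPM in the WT libraries and 35.4, 49.1 and 30.8 CPM in the KO libraries. The MuvB subunits Lin9 and Lin54, the latter the one that contacts the CHR, rose by 0.93 (SE 0.16) and 0.96 (SE 0.17). The subunit Lin52, named after its value was seen, fell by 0.98 (SE 0.27), a call that ended on leaving out any library but WT 3.

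**Figure D5:**
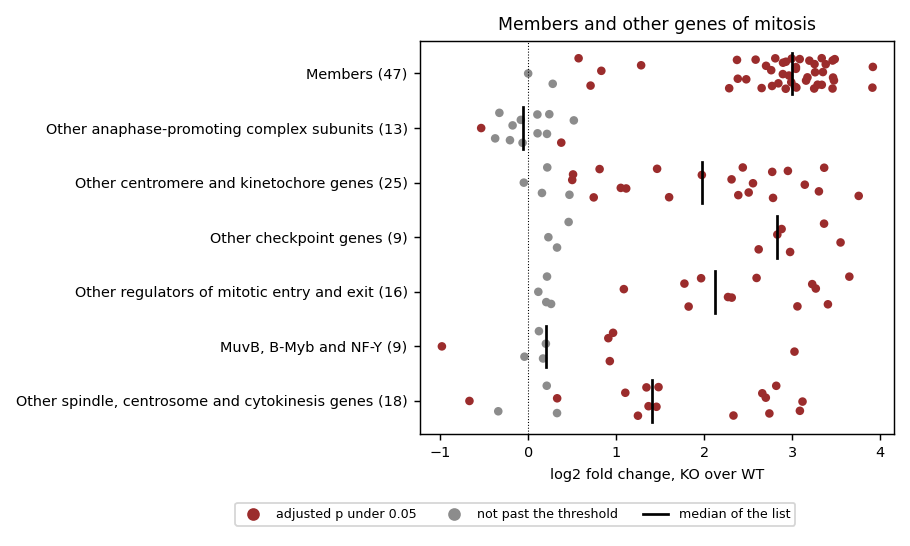
Log2 fold change of KO over WT for the members and for 6 lists of other genes of mitosis, with 1 point per gene, the number of genes in brackets and a black bar at the median. Red points passed an adjusted p of 0.05. The other subunits of the anaphase-promoting complex lie around 0, while the checkpoint and kinetochore lists reach the range of the members.

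Some counts may include reads of other genes. The annotated spans of 10 members overlap a gene on the opposite strand with more than 10% of their mean count (Ccna2, Cdc25b, Cdca8, Bub3, Cenpk, Cdc20, Fzr1, Ube2s, Nusap1 and Prc1), and the use of strand in counting is not stated. The overlap is large for Ube2s, which shares 521 bases of its span with Rpl28, a ribosomal protein gene with a mean of 9724 reads against 2294. Bub3 and Prc1 lie wholly within the span of their neighbours (Fgfr2 and Rccd1). Among pseudogenes in the table that carry a member's name, Ccnb2-ps had 18.8% of the mean count of Ccnb2, with 163, 195 and 130 reads in the WT libraries and 111, 89 and 72 in the KO libraries. Reads of Ccnb2 can be split with it, and its counts ran opposite to those of Ccnb2.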

How the data were processed

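The 6 neurosphere RNA libraries were made from 3 µg of RNA each with a NEBNext Ultra kit, per the labels' protocols. The tools named by the submitters' processing notes are HISAT2 (2.0.5), featureCounts (1.5.0-p3) and DESeq2 (1.16.1), with mm10 as the build. Their settings are not given. The deposited table pairs whole-number read counts per gene, raw per the file headers and column sums, with a second set of columns under the same names. The values show that the authors made these into FPKM, from the same counts, the gene length and the library total. Back-calculated counts matched within 0.05 reads for every member.

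Differences between KO and WT were estimated from all 6 libraries together, with no covariate. Genes were kept by the filterByExpr defaults (16606 genes), scaled by TMM and tested by the two-sided quasi-likelihood F test of edgeR 4.0.16 (R 4.3.3). P-values were adjusted by Benjamini-Hochberg over all tested genes, with a threshold of 0.05. The SE is the absolute log2 fold change over the square root of F. The biological coefficient of variation was 26.5%, and 3 reads corresponded to 0.136 to 0.179 CPM. The procedure was tested on simulated data with 200 changed genes. The simulated spread was set lower than that of these data, so it does not measure how reliable the calls are here. CPM after TMM shows a gene across libraries and FPKM compares genes. Alternatives were RLE factors, library totals, no filter, a filter of 1 CPM in 3 libraries, DESeq2 1.42.0, limma-voom (limma 3.58.1) with weights per library, limma on log2(FPKM + 1) and log2(FPKM + 0.1) (mean FPKM from 0.5 upwards), and each library left out in turn.

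Members, gene lists and tests were chosen with earlier results of these data known. Named genes are the 47 members, Ash2l and, from each list of other mitosis genes, up to 3 tested genes with the lowest p. Numa1, Lin52 and single cell type markers are named in addition, after their values were seen. Promoter sequences are from RefSeq.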

Additional observations from a re-analysis of the deposited data

How the results depend on the processing

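Of the 45 members called higher, 42 kept the call under all 14 alternatives. The other 3, Cdc25b, Cdc25c and Fzr1, lost it only when 1 library was left out. The number of members higher ran from 42 to 45 with 1 library left out and was 45 under each other alternative, and 0 members were lower under any of them. The members' median log2 fold change ran from 2.78 without WT 7 to 3.63 without WT 3, and from 2.65 with log2(FPKM + 1) to 3.52 with limma-voom among the rest. Leaving out WT 3 moved 23 members by more than 1.5-fold, all upwards. Limma-voom moved 12 upwards and log2(FPKM + 1) moved 12 downwards, the latter a scale that shrinks low genes. Over all tested genes the number called was 8052 with limma-voom and ran from 2178 without WT 6 to 6641 without WT 3. The cause was not tested. Without an expression filter the median log2 fold change of all genes was 0.14.

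The sign of Pttg1, which did not pass under any alternative, reversed to 0.011 with RLE factors, 0.059 with library totals, 0.0042 without a filter, 0.00033 with the 1 CPM filter, 0.0073 with DESeq2, 0.055 and 0.062 on the FPKM scales, 0.21 without WT 7 and 0.18 without KO 1. With 1 library left out it ran from -0.12 without KO 3 to 0.21. Anapc15 passed with library totals, the 1 CPM filter, DESeq2, limma-voom and both FPKM scales. Of the genes named by lowest p from the lists, all but Anapc1, Anapc15 and Anapc16 kept their call throughout. Numa1 lost its call without WT 7 or KO 2, and Lin52 without any library but WT 3. With 1 library left out, an alternative chosen after seeing the data, the log2 ratio of Ndc80 over Nuf2 in KO against WT ran from -0.12 without WT 6 to 0.25 without WT 7. No paired analysis was possible because the groups share only replicate number 3. Ratios of single pairs could not reach p under 0.1 with 3 libraries a group.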

Other observations

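The order of the motifs was looked at after their positions were seen. In 26 of the 40 members with a promoter a CHR match lay within 50 bases of the start, against 6.12% of all symbols with a promoter and 4.27% of those among the tested genes. In 19 of the 40 a CCAAT box also began within 50 bases upstream of such a CHR match, against 0.74% of all symbols and 0.878% of tested ones. These 19 include Bub3 and Cdc25b, whose rises were small, so the arrangement of letters did not go with the size of the change in every member. No test was made of these shares.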
